A study of Homo sapiens with 6 samples.

Results

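The guide strands of the miR-26 family, hsa-miR-26a-5p and hsa-miR-26b-5p, were followed in small RNA from exosomes of MDA-MB-231, a human cell line from a triple-negative breast carcinoma. They were chosen by name, as the 2 miR-26 guide strands among the 503 mature miRNAs in each count table. The choice was made with earlier results of these data known. Exosomes came from stable clones with a control hairpin RNA (shNC) or with one directed at MCU, the channel subunit of the calcium uniporter of mitochondria (shMCU). Each group had 3 libraries. Both groups share the cell line, the carriage of an integrated hairpin construct and growth in medium with exosome-depleted bovine serum. How many clones stand behind each group is not stated, nor whether the replicates were separate cultures, so each p-value is set against a spread among libraries that could be technical alone. No time or dose differed between the groups. Small RNA libraries count neither the MCU transcript nor mRNA markers of the line, so neither label could be checked here.

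The miR-26 guides are made from hairpins in introns of the CTDSP genes, which encode small phosphatases of the C-terminal domain of RNA polymerase II. After processing, the guide strand sits in Argonaute and pairs with target mRNAs mainly through its seed, bases 2 to 8 counted from the 5′ end. miR-26a is best known as a growth-restraining miRNA that represses EZH2, the methyltransferase of Polycomb complex PRC2, and in liver it restrains cyclins.

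The sequences are given to show what the guides share and where their reads can be told apart. Of the 2370 human mature miRNA names in RefSeq's table (GRCh38.p14), 4 carry the seed UCAAGUA, and the seed is in capitals below.
miR-26a-5p: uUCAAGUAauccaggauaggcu
miR-26b-5p: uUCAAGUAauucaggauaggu
miR-1297: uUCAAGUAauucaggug
miR-4465: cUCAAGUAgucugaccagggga

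Counted from the 5′ end of miR-26a-5p, the 2 guides differ by C11U and C21U over the 21 bases they can be aligned along, and miR-26a-5p has 1 base more at its 3′ end. Their first 10 bases are identical. miR-26b-5p and the shorter miR-1297 are identical over their first 15 bases and first differ by A16U. miR-1297 and miR-4465 were not among the 503 listed miRNAs, so they have no counts here. The mismatch setting of the alignment is not given in the sources used here, so a read of one guide with a base error at position 11 could have been counted as the other.

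The guide miR-26a-5p comes from 2 hairpins that hold the identical 22 bases, so its reads cannot be divided between host genes, whereas miR-26b-5p comes from 1 hairpin. The guide is in capitals in each hairpin.
MIR26A1: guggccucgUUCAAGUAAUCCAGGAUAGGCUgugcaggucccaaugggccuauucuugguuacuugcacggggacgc
MIR26A2: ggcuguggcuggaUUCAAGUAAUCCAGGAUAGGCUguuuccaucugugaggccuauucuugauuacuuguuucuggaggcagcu
MIR26B: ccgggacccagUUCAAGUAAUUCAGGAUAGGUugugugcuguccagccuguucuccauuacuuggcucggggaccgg

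On GRCh38, MIR26A1 lies at chr3:37969404-37969480 on the plus strand, in intron 5 of 7 of the principal transcript of CTDSPL in GENCODE 29. MIR26A2 lies at chr12:57824609-57824692 on the minus strand, in intron 5 of 7 of the principal transcript of CTDSP2. MIR26B lies at chr2:218402646-218402722 on the plus strand, in intron 4 of 6 of that of CTDSP1. Those introns are 3524, 2026 and 629 bases long. Each hairpin is on the strand of its host, and none of the host transcripts that span it (5 for CTDSPL, 6 for CTDSP2 and 11 for CTDSP1) has an exon over it. The nearest other hairpin is 1168726 bases from MIR26A1, 75927 from MIR26A2 and 60666 from MIR26B, so none of the 3 sits in a miRNA cluster. The submitters' processing notes name hg19 as the build of the alignment, and these GRCh38 positions serve as annotation only.

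hsa-miR-26a-5p was detected with at least 45 reads in each of the 6 libraries. Replicates 1, 2 and 3 of shNC held 254, 86 and 122 of its reads, and those of shMCU held 60, 73 and 45. The library totals behind these counts were 47863, 11563 and 19884 in shNC and 12930, 14692 and 12859 in shMCU, so the raw counts follow depth and need scaling. As a share of all listed miRNA counts, miR-26a-5p made up 0.531%, 0.744% and 0.614% in the shNC libraries. In shMCU it made up 0.464%, 0.497% and 0.350%. Every shMCU library was therefore below every shNC library, the narrowest gap being that between shMCU replicate 2 and shNC replicate 1. The exact binomial 95% intervals of that pair overlapped, at 0.390% to 0.624% and 0.468% to 0.5999%. These intervals cover the counting error of reads only. Reads from PCR copies of 1 molecule were not collapsed as far as the labels say, so the intervals may be too narrow for molecules.

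hsa-miR-26b-5p was scarcer. Replicates 1, 2 and 3 of shNC held 25, 10 and 11 of its reads, and those of shMCU held 9, 4 and 8. Its share was 0.0522%, 0.0865% and 0.0553% in shNC and 0.0696%, 0.0272% and 0.0622% in shMCU. The groups overlapped, with the highest share in shNC replicate 2 and the lowest in shMCU replicate 2. The lowest of these values rests on 4 reads, with an exact binomial 95% interval from 0.00742% to 0.0697%, which reaches above the observed share of 4 of the other 5 libraries.

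**Figure D1:**
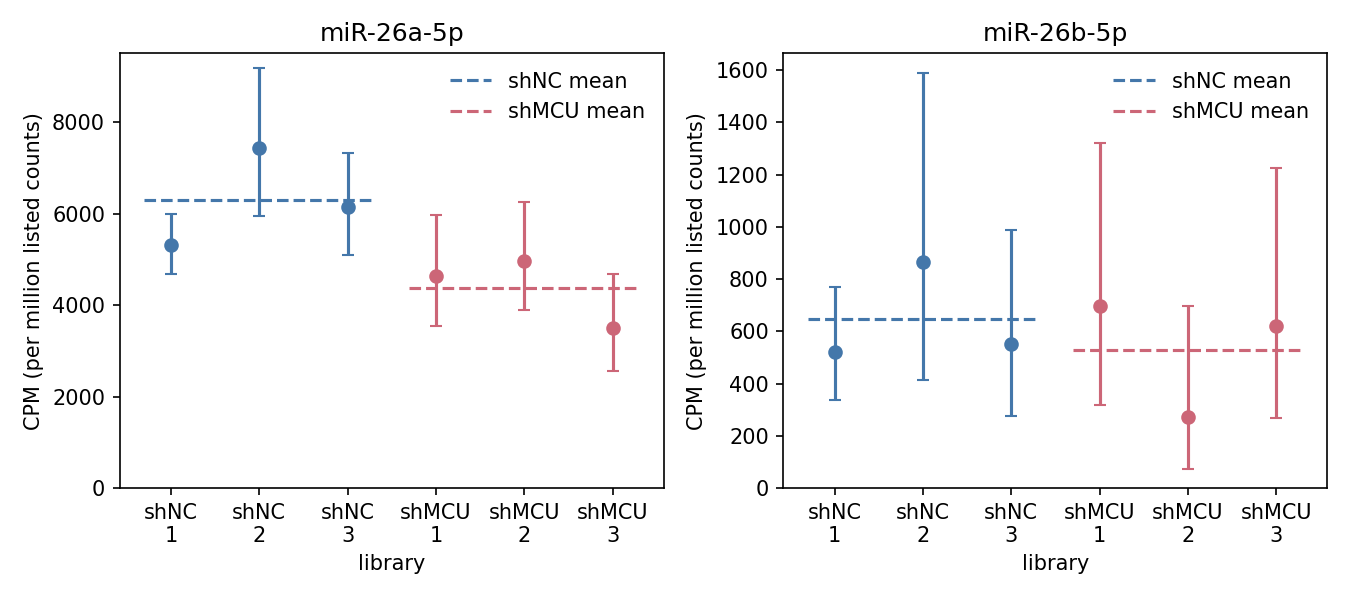
Levels, as CPM (counts scaled to a common total of listed miRNA counts), of miR-26a-5p and miR-26b-5p in each library; points are libraries, bars are exact binomial 95% intervals for counting error, and dashed lines are group means. The 3 shMCU points of miR-26a-5p lie between 3499 and 4969 CPM, below the 3 shNC points at 5307 to 7438 CPM, while the points of miR-26b-5p overlap.

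Among the 503 listed miRNAs, miR-26a-5p stayed between ranks 26 and 29 and miR-26b-5p between 77 and 112.5. In replicates 1, 2 and 3, miR-26a-5p ranked 28, 26 and 26 among shNC and 28, 27 and 29 among shMCU libraries. Rank 1 is the most abundant, and tied miRNAs share a mean rank. The group means were 26.7 ± 1.15 (SD, n = 3) and 28.0 ± 1.00, a difference of 1.33 places (exact permutation test, two-sided p = 0.3). miR-26b-5p ranked 87, 77 and 86.5 in shNC and 84.5, 112.5 and 83 in shMCU, and shared its count with 4 to 11 other miRNAs in each library. Its mean rank was 83.5 ± 5.63 in shNC and 93.3 ± 16.6 in shMCU (exact permutation test, two-sided p = 0.6).

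In the order of mean share over the 6 libraries, miR-26a-5p was number 27. It stood below miR-7704 and above miR-1246, both of them annotations whose reads may stem from longer RNAs, as has been proposed. The mean share of miR-26a-5p was 0.533%, that of miR-7704 0.714% and that of miR-1246 0.487%. These neighbours could not be ordered beyond their spread, since miR-26a-5p exceeded miR-7704 in 2 of 6 libraries and miR-1246 in 3 of 6. miR-26b-5p was number 85, between miR-3648 and miR-425-5p, a guide made from an intron of DALRD3. The mean shares of miR-3648, miR-26b-5p and miR-425-5p were 0.0590%, 0.0588% and 0.0585%. miR-26b-5p exceeded miR-3648 in 2 of 6 libraries and miR-425-5p in 3 of 6.

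The more abundant paralogue was miR-26a-5p in each of the 6 libraries. It had 10.2, 8.60 and 11.1 reads per read of miR-26b-5p in shNC replicates 1, 2 and 3. In shMCU replicates 1, 2 and 3 the ratio was 6.67, 18.2 and 5.62. The shMCU libraries lay on both sides of the shNC libraries, and shMCU replicate 2, with 4 reads of miR-26b-5p, had the highest ratio. Its exact binomial 95% interval ran from 6.83 to 68.8 and that of shMCU replicate 3 from 2.62 to 13.8, so even the most distant libraries overlapped in counting error. Over all 6 libraries, 640 reads of miR-26a-5p stood beside 67 of miR-26b-5p, a ratio of 9.55 (exact 95% interval 7.42 to 12.5). Ligation of adapters can favour one 3′ end over another and the paralogues differ there, so this read ratio need not be the ratio of molecules.

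**Figure D2:**
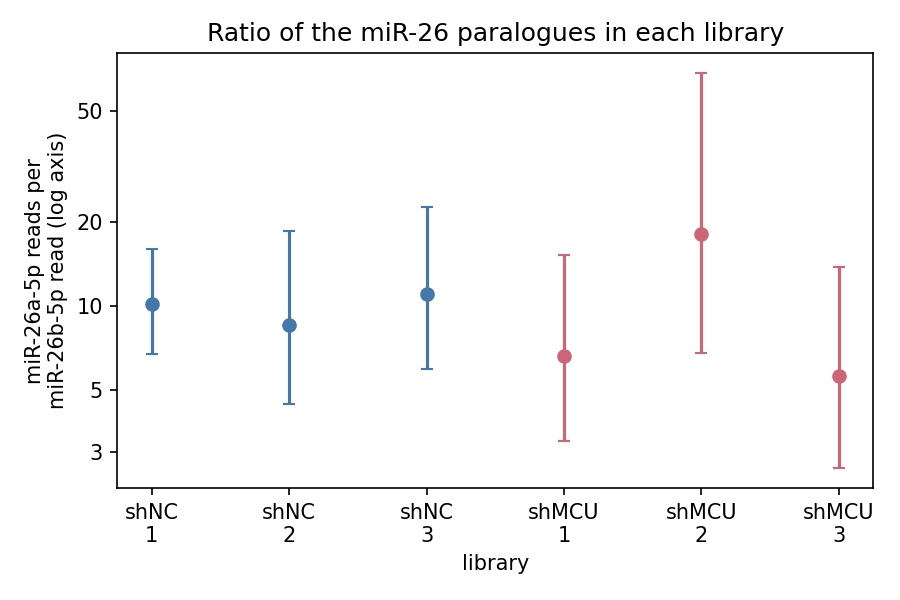
Reads of miR-26a-5p per read of miR-26b-5p in each library, on a log axis; bars are exact binomial 95% intervals for counting error. The shNC libraries lie between 8.60 and 11.1 and the shMCU libraries between 5.62 and 18.2, and all intervals overlap.

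Between the groups, the mean log2 ratio of miR-26a-5p to miR-26b-5p was 3.31 ± 0.19 for shNC and 3.14 ± 0.92 for shMCU (SD, n = 3). The difference of -0.17 (shMCU minus shNC) was smaller than the SD within either group (two-sided exact permutation p = 0.9). It changed direction without shMCU replicate 1, to 0.03, and without shMCU replicate 3, to 0.16, and was -0.69 without shMCU replicate 2. Counts summed within each group gave 462 to 46 reads in shNC, a ratio of 10.04 (7.41 to 13.9), and 178 to 21 reads in shMCU, a ratio of 8.48 (5.38 to 14.0).

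The comparison of shMCU with shNC asks whether lowering MCU alters the miRNA content of exosomes. In shNC the mean share of miR-26a-5p was 0.629% ± 0.107 and in shMCU 0.437% ± 0.0771 (SD, n = 3), a difference of -0.192 percentage points (two-sided exact permutation p = 0.1, which 3 against 3 libraries cannot go below; 0.3 after Benjamini-Hochberg adjustment over 6 measures). Both guides together made up 0.694% ± 0.126 in shNC and 0.490% ± 0.0675 in shMCU (exact permutation test, two-sided p = 0.1; adjusted p = 0.3). As a share of all listed counts, miR-26b-5p alone made up 0.0647% ± 0.0189 in shNC and 0.0530% ± 0.0226 in shMCU (exact permutation test, two-sided p = 0.6, adjusted p = 0.72).

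The separation of the groups by miR-26a-5p was shared with other miRNAs and did not hold under another scaling. Of the 79 miRNAs that passed the filter on low counts, 8 (10.1%) had every shMCU library below every shNC library by share, miR-26a-5p among them, and 1 (1.27%) had every shMCU library above. After scaling by TMM, which sets libraries to a common level over most miRNAs, miR-26a-5p stood at 4734, 6821 and 5975 CPM in shNC and at 4402, 5377 and 4279 CPM in shMCU. The groups then overlapped, as shMCU replicate 2 passed shNC replicate 1 (exact permutation test, two-sided p = 0.2), and 5 of 79 miRNAs (6.33%) had every shMCU library below every shNC library.

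In edgeR's quasi-likelihood test over the 79 miRNAs, miR-26a-5p had a log2 fold change of -0.31 ± 0.26 (SE). As a fold this is 0.805 (95% interval 0.542 to 1.20). Its adjusted p was 0.76 (unadjusted p = 0.25), and it did not pass the threshold of 0.05. None of the 79 did (0%; 3, or 3.8%, at an unadjusted p under 0.05 with edgeR; DESeq2 called 1, a miRNA outside the family). Fold changes were below 0 for 41 miRNAs (51.9%), and at or below that of miR-26a-5p for 16 (20.3%), against a median of -0.02 over all tested. With library totals alone in place of TMM, the value was -0.52 (unadjusted p = 0.089, adjusted p = 0.73) and the median of all tested miRNAs moved to -0.24.

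miR-26b-5p had too few counts to pass the filter, so its value comes from the fit without one. There it had a log2 fold change of -0.20 ± 0.59 (SE), or 0.872-fold (95% interval 0.389 to 1.95; adjusted p = 0.86 by edgeR's quasi-likelihood test). In that fit 1 of 503 miRNAs was called (0.199%) and 10 had an unadjusted p under 0.05 (1.99%). Fold changes were below 0 for 297 (59%), with a median log2 value of -0.25 over all 503. The value of miR-26a-5p in the same fit was -0.46. Without shMCU replicate 2, the library with 4 reads, the value of miR-26b-5p was 0.05. Its 95% interval over all libraries holds folds on both sides of 1.

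**Figure D3:**
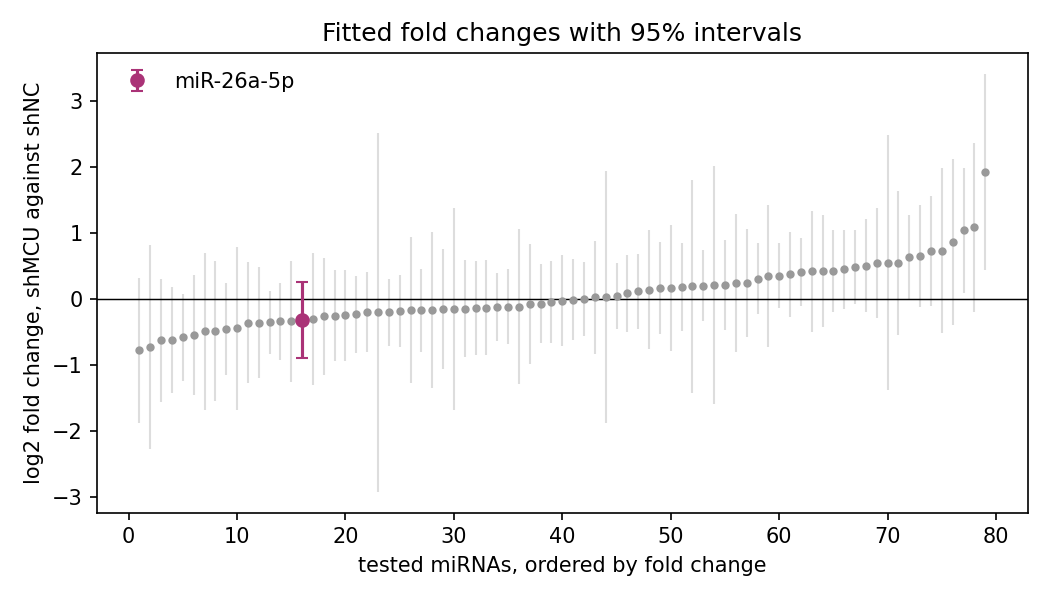
Log2 fold change of shMCU against shNC with its 95% interval for each of the 79 tested miRNAs, in ascending order, from edgeR's quasi-likelihood fit with TMM scaling. miR-26a-5p, at -0.31, is number 16 from the lowest, and its interval, like most, includes 0.

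The spread of each guide's share is set beside its counting error. For miR-26a-5p the coefficient of variation of the share was 17.1% among shNC and 17.6% among shMCU libraries, where counting alone gives 8.90% and 13.2%. For miR-26b-5p it was 29.3% and 42.7%, close to the 27.7% and 40.3% that counting alone gives. Each coefficient rests on 3 libraries, and a difference between the guides was not tested.

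Leaving out single libraries moved the values of miR-26a-5p. shMCU replicate 3 had the lowest TMM factor, 0.818 against 0.924 to 1.12 in the others, and also the lowest miR-26a-5p share. Its part in the lower mean was not tested as a cause, but without it the log2 fold change of miR-26a-5p was -0.28 and the difference in share -0.149 percentage points. Leaving out shNC replicate 2, the library with the highest share, brought the log2 fold change to -0.19 (adjusted p = 0.84 by edgeR's quasi-likelihood test). Away from 0, it went to -0.46 without shNC replicate 1 and to -0.44 without shMCU replicate 2.

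The tested miRNA whose levels were most like those of miR-26a-5p over the libraries was let-7a-5p, a guide of the let-7 family. Pearson's r of log2 CPM was 0.98 over 6 libraries, the highest of 78 compared, and 0.96 with TMM-scaled values. Next came miR-103a-3p, made from introns of PANK genes, with r = 0.90, and miR-27b-3p, of the miR-23b cluster, with r = 0.89. With TMM-scaled values these were 0.76 for each. All points share their library and its total, and each of these miRNAs was among the 8 whose shMCU shares lay below all shNC shares.

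For each read of miR-26a-5p there were 6.32, 5.51 and 6.16 reads of let-7a-5p in replicates 1, 2 and 3 of shNC, and 6.68, 6.42 and 6.38 in those of shMCU. These ratios, from 5.51 to 6.68, are a description, since let-7a-5p was picked for its likeness over the same libraries. let-7a-5p can share reads with its close relatives, and its log2 fold change was -0.20 ± 0.23 (SE; adjusted p = 0.86 by edgeR's quasi-likelihood test).

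The counted levels of miR-26b-5p showed little correlation with those of its paralogue. Between the guides r was 0.24 over 6 libraries, and -0.01 with TMM-scaled values. The tested miRNAs most like it were miR-203a (r = 0.96), an epithelial miRNA, miR-1 (r = 0.92), a muscle miRNA, and miR-320c (r = 0.85). With 4 to 25 reads of miR-26b-5p in each library, these r values describe sparse counts and cannot tell whether the guides vary together.

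**Figure D4:**
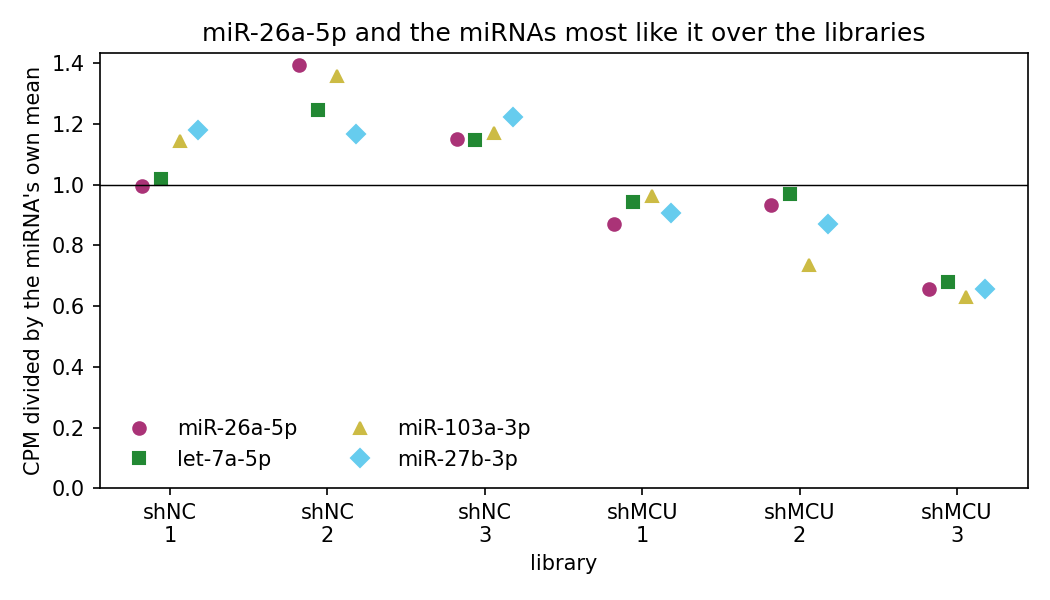
CPM of miR-26a-5p and of the 3 tested miRNAs most like it over the libraries, each divided by its own mean over the 6 libraries; a value of 1 is that mean. miR-26a-5p and let-7a-5p are both highest in shNC replicate 2 and lowest in shMCU replicate 3.

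Of the opposite arms, only miR-26b-3p was among the 503 listed miRNAs.
miR-26b-3p: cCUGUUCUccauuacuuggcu
Bases 2 to 8 are again in capitals, and they differ from the guide's seed. It had 1 read in shNC replicate 2 and 0 in the other 5 libraries. A count of 0 allows up to 62.7 CPM in the deepest of those libraries and 233 CPM in the shallowest. Of 68 reads from both arms of MIR26B, 1.47% came from the 3p arm (exact binomial 95% interval 0.0372% to 7.92%), so nearly all counted reads were of the guide.

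miR-26a-5p was also set beside other miRNAs made from introns of protein-coding genes, from a list written from background knowledge. Of 35 names, 33 had counts here, and 29 of those had at least 1 RefSeq hairpin inside a protein-coding gene on the same strand in GENCODE 29. For 25 names every hairpin lay inside one. The remaining 4 names with counts had no matched hairpin, so their hosts were not checked. Of 14 tested members, miR-26a-5p included, 0 passed the adjusted test, 9 had a fold change below 0 and 5 above, with a median of -0.22. Among all 79 tested miRNAs, 0 passed, 41 (51.9%) had a fold change below 0 and the median was -0.02. Values ran from -0.62 for miR-93-5p, listed under MCM7, to 0.74 for miR-28-3p, listed under LPP. Both are among the 4 names without a matched hairpin. The most abundant were let-7f-5p, whose mean was 43320 ± 7464 CPM in shNC (SD, n = 3) and 43207 ± 1901 CPM in shMCU, and miR-27b-3p, with 34664 ± 878 and 23634 ± 3940 CPM. Only 1 of the 2 hairpins of let-7f-5p lies in a protein-coding gene, HUWE1, and its reads were not divided between them. Of the 14, 3 lay below in every shMCU library by share, namely miR-26a-5p, miR-103a-3p and miR-27b-3p, where the background is 10.1%. That background of 8 among 79 includes the same 3, and miR-26a-5p is the member being compared. An excess was not tested.

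A second list held 8 miRNAs that have been reported to repress EZH2, as miR-26a has. Of its 5 tested members 0 passed the adjusted test, 3 had a fold change below 0 and 2 above, with a median of -0.20. Over all 79 tested, 0 passed, 51.9% were below 0 and the median was -0.02, so the count of this list is near the background. The range was from -0.72 for miR-138-5p to 0.43 for miR-101-3p, the best known of these repressors. The most abundant were let-7a-5p, at 37432 ± 3741 CPM in shNC and 28418 ± 5301 in shMCU (SD, n = 3), and let-7b-5p, with 9747 ± 1035 and 8689 ± 633 CPM. The level of EZH2 itself is not measured by small RNA libraries.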

How the data were processed

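Read counts per mature miRNA were deposited, 1 table for each of 6 exosome libraries. Their values are whole numbers with unequal totals (11563 to 47863), as raw counts have. The submitters' processing notes name Bowtie and hg19; version, settings, counting tool and the handling of reads with several matches are not given in the sources used. Exosomes were collected by polyethylene glycol and ultracentrifugation, and small RNA was ligated to adapters, per the labels' protocols.

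Shares and CPM use the total of all 503 listed miRNAs. The test was that of edgeR 4.0.16 under R 4.3.3 (robust quasi-likelihood fit, TMM, group only) on the 79 miRNAs passing filterByExpr with a minimum count of 10, which hold 95.5% to 96.6% of counts, with Benjamini-Hochberg adjustment at 0.05. The test was tested on simulated data. Standard errors are the fold change over the square root of F. Shares, ranks and ratios were compared by exact permutation of libraries (scipy 1.17.1). The alternatives were DESeq2 1.42.0, other scalings and filters, a replicate block, other denominators, removal of the 10 most abundant miRNAs and each library left out; TMM-scaled shares were added after seeing the data. Replicates of a group differed by more than sampling noise.

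Named miRNAs are both guides, other miR-26 arms and seed sharers, the 3 most alike by correlation (log2 of CPM plus 1), neighbours by share, and for 2 lists the most abundant members, those at the ends of the range and those below in every shMCU library. The last 2 of these were chosen after their values were seen. Members and lists were chosen with earlier results of these data known. Sequences are RefSeq's (GRCh38.p14), in which 437 of the 503 names matched.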

Additional observations from a re-analysis of the deposited data

How the results depend on the processing

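The log2 fold change of miR-26a-5p stayed below 0 and uncalled in 12 of 12 alternatives (-0.52 to -0.19; adjusted p 0.56 to 0.99); the filter of 100 counts removed it. For miR-26b-5p, leaving out libraries gave -0.34 to 0.054, above 0 only without shMCU replicate 2; both filters remove it from the fit of all libraries. The number of miRNAs past the adjusted threshold, 0, was 1 with DESeq2 and 1 without a filter, neither a miR-26 guide, and 0 in the 11 others run; the cause was not tested. Leaving out libraries moved the difference in share of miR-26a-5p to between -0.242 and -0.135 percentage points, that of miR-26b-5p to between -0.0200 and 0.0012, and that of the log2 ratio to between -0.69 and 0.16. Same-numbered libraries showed no pairing (correlations of deviations 0.16, -0.35 and 0.08); with a replicate block the log2 fold changes were -0.31 for miR-26a-5p and -0.22 for miR-26b-5p, with 0 calls.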
